A study of Mus musculus with 2 samples.

Results

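The miR-290 to miR-295 cluster and the cluster of miR-302 and miR-367 are the miRNA clusters best known from mouse embryonic stem cells. A set of 10 of their mature miRNAs was examined in small RNA of extracellular vesicles (EVs), the membrane-bound particles shed by cells, isolated from mouse serum. The 10 members were chosen by name, and all were among the 1847 mature mouse miRNAs listed in both deposited tables. The control-labelled library came from male mice labelled WT, and the iFIRKO-labelled library from male mice labelled Adipoq-CreERT2; Insr flox/flox, in which the adiponectin promoter drives an inducible Cre and the insulin receptor is lost from adipocytes. Per the study's methods the control mice carried the floxed alleles without Cre, and each library was made from serum pooled over several mice. All mice were 7 weeks old, had received tamoxifen (100 mg/kg) for 5 days, with serum taken on day 3 after the injections ended. Each group had 1 library, so no spread between animals was measured and no test between genotypes was possible. The deletion itself cannot be read from a miRNA table. The study took forward miRNAs that it reported as raised in serum EVs of iFIRKO mice, by sequencing and by quantitative RT-PCR of individual serum samples. In the deposited sequencing values all of them were lower in the iFIRKO-labelled library. The ratio of iFIRKO over control was 0.506 for miR-144-3p, 0.557 for miR-16-2-3p, 0.409 for miR-451a and 0.549 for miR-486a-3p. The study also reported that most serum EV-miRNAs were lower in iFIRKO mice. In the deposited values 66.3% of the listed miRNAs were over 1.5-fold higher in the iFIRKO-labelled library and 3.03% lower. These shares depend on the scale, and were 21.0% and 19.5% with the TMM scaling of edgeR. Which library belongs to which group therefore rests on the labels alone. Every ratio below would be inverted if the labels were exchanged, which was not tested. The direction of some ratios also depends on the scaling.

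Both clusters are transcribed as long primary RNAs that are cut into several hairpins, and each hairpin gives a 5p and a 3p mature strand. In embryonic stem cells most of the 3p strands share a seed, the bases from position 2 to 8 that pair with target mRNAs, and they are known to promote the rapid division of these cells. Both clusters are known to be shut down as cells differentiate, and their expression in adult tissues is known to be low. Serum EV-miRNAs are known to come mainly from blood cells, liver, endothelium and adipose tissue.

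A RefSeq mature sequence (GRCm38.p6) was matched to 8 of the 10 members. The other members are mmu-miR-292a-3p and mmu-miR-302a-3p. The 8 sequences are given because their seeds define the groups used below, with the seed in capitals, from 5′ to 3′.
mmu-miR-291a-3p: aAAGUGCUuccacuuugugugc
mmu-miR-294-3p: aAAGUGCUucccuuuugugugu
mmu-miR-295-3p: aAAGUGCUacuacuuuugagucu
mmu-miR-302d-3p: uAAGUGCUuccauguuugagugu
mmu-miR-293-3p: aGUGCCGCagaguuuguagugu
mmu-miR-292a-5p: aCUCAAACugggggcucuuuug
mmu-miR-295-5p: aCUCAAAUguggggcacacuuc
mmu-miR-367-3p: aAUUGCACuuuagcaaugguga
The first 4 share the seed AAGUGCU, although 3 of them lie on chromosome 7 and mmu-miR-302d-3p on chromosome 3. The 3p strand of miR-293, the 5p strands of miR-292a and miR-295, and miR-367-3p each have another seed. miR-291a-3p and miR-294-3p were 3 edits apart (single-base changes, insertions or deletions), miR-294-3p and miR-302d-3p 4 edits, and no miRNA outside the clusters with a sequence was closer to any of the 8 than 6 edits. The GC content of the 8 ran from 34.8% to 50.0% with a median of 43.2%, below the median of 52.2% over the 1592 listed miRNAs with a sequence.

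The hairpins lie in 2 short stretches of the genome (GRCm38). The miR-290 to miR-295 cluster covers 2216 bases at chr7:3218626-3220841, with 7 hairpins on the plus strand and the antisense hairpins Mir290b and Mir292b on the minus strand. Of its 9 hairpins, 7 lie within the 3' UTR of Nlrp12, an innate immune receptor gene annotated on the minus strand, and Mir290a and Mir290b lie outside it. Mir292 (chr7:3219189-3219270) is overlapped by Mir292b (chr7:3219198-3219259) on the opposite strand, and how the authors used strand in counting is not given in the sources used here, so the counts of these hairpins, like those of near-identical strands, are uncertain. The cluster of miR-302 and miR-367 covers 580 bases at chr3:127545228-127545807, with all 5 hairpins within introns of Larp7, an RNA-binding protein gene on the minus strand. The 2 hairpins below come from this cluster, Mir302d (chr3:127545624-127545689) and Mir367 (chr3:127545733-127545807), and are shown with both mature strands in capitals. They are examples of hairpins with a strand above and a strand at the lowest listed value in at least 1 library. miR-295 and miR-302c also met this and are not shown.
Mir302d: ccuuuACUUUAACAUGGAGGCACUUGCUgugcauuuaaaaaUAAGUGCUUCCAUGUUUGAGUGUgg
Mir367: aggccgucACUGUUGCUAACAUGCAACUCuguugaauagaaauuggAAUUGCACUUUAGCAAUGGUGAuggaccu

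The tables gave a single normalized value per miRNA, which in each library was a whole count divided by 1 constant, so counts were recovered. The constant was taken as the depth, 3817902 for the control-labelled library and 2233498 for the iFIRKO-labelled library, a difference of 1.71-fold. The lowest value of each table, which equals 1 count, was a floor that stands for fewer than 10 counts, since no count from 2 to 9 occurred. Levels are given as recovered counts and as counts scaled to a depth of 1000000 (CPM), per mature miRNA and not per base, since the members with a sequence were all 22 or 23 bases long. Intervals are 95% intervals and cover counting error only. The labelled material was checked on miRNAs known from blood and liver. miR-16-5p, found in red blood cells, had 994113 counts in the control-labelled library and 426219 in the iFIRKO-labelled library, and miR-122-5p of the liver had 417919 and 417108. The ratio of iFIRKO over control was 1.71 for miR-122-5p on the deposited scale, and under 1 with the TMM scaling of edgeR. For the other markers it was 0.409 for miR-451a and 0.70 for miR-486a-5p of red blood cells, 0.733 for miR-16-5p, 0.71 for miR-126a-3p of endothelium and 0.799 for miR-223-3p of leukocytes.

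The members had low counts in both libraries. Their counts summed to 344 in the control-labelled library and 403 in the iFIRKO-labelled library, which was 0.00901% and 0.0180% of the depth. A total of 9 members were above the floor in the control-labelled library and all 10 in the iFIRKO-labelled library. This was so for most listed miRNAs, as only 4.11% and 1.89% of all 1847 were at the floor. The median member had 38.5 counts in the control-labelled library and 42 counts in the iFIRKO-labelled library, close to the medians over all 1847 miRNAs of 37 and 47 counts.

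Among the carriers of the AAGUGCU seed, the strand group best known for its role in stem cells, miR-294-3p had 70 counts (18.3 CPM, 14.3 to 23.2) in the control-labelled library and 62 counts (27.8 CPM, 21.3 to 35.6) in the iFIRKO-labelled library. It was the member with the most counts in both. miR-302d-3p had 61 counts (16.0 CPM) and 48 counts (21.5 CPM). miR-291a-3p had 13 counts (3.41 CPM) and 16 counts (7.16 CPM), and miR-295-3p had 12 counts (3.14 CPM) and 29 counts (13.0 CPM). Carriers of 1 seed therefore differed in level, and in the control-labelled library miR-294-3p and miR-302d-3p stood well above miR-291a-3p and miR-295-3p.

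The remaining members ran from the floor to 50 counts in the control-labelled library and from 12 to 61 counts in the iFIRKO-labelled library. miR-292a-3p and miR-292a-5p, both strands of Mir292, each had 50 counts (13.1 CPM) in the control-labelled library and 61 counts (27.3 CPM) in the iFIRKO-labelled library. Such a match was found for no other hairpin, as among 696 hairpins with both strands listed the strands had equal counts for 6 in the control-labelled library and 11 in the iFIRKO-labelled library, and for miR-292a alone in both. Over all listed miRNAs, at any level, 578 (31.3%) shared their pair of counts with another miRNA. That share covers a match with any miRNA, so it does not give how often the strands of a hairpin match. The pair of 50 and 61 counts was shared by no miRNA other than the strands of miR-292a. What gave these strands equal counts was not tested. miR-293-3p had 38 counts (9.95 CPM) and 54 counts (24.2 CPM). miR-302a-3p had 39 counts (10.2 CPM) and 36 counts (16.1 CPM). miR-367-3p, whose seed is that of the miR-25 and miR-92 family, had 10 counts (2.62 CPM) and 24 counts (10.7 CPM). miR-295-5p was at the floor in the control-labelled library, which is less than 2.62 CPM, and had 12 counts (5.37 CPM) in the iFIRKO-labelled library.

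**Figure D1:**
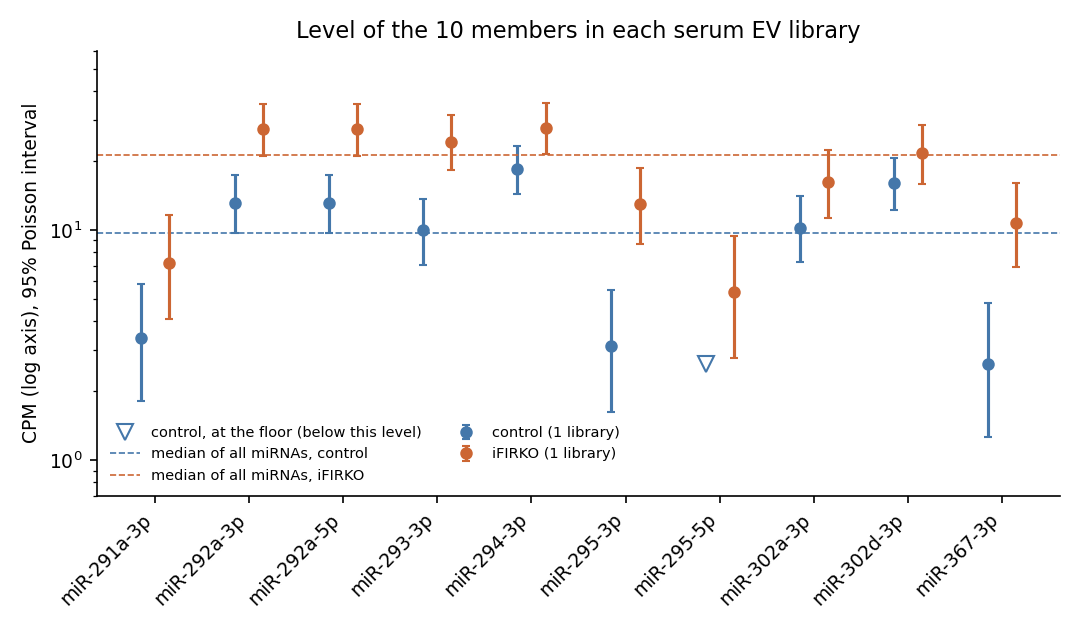
CPM on a log axis of the 10 members in the libraries labelled control and iFIRKO (1 each), with 95% Poisson intervals of the count and dashed lines at the median of all miRNAs in each library (9.69 and 21.0 CPM). Of the 10 members, 4 were at 13 counts or fewer in the control-labelled library, and miR-295-5p is drawn as an open triangle at its upper limit.

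In the order of levels most neighbours could not be separated. In the control-labelled library, the descending order was miR-294-3p, miR-302d-3p, the 2 strands of miR-292a, miR-302a-3p, miR-293-3p, miR-291a-3p, miR-295-3p, miR-367-3p and miR-295-5p. Among members above the floor, the ratio of 2 neighbours had an interval without 1 only between miR-293-3p and miR-291a-3p, at 2.92 (1.52 to 5.98). In the iFIRKO-labelled library the order was miR-294-3p, the strands of miR-292a, miR-293-3p, miR-302d-3p, miR-302a-3p, miR-295-3p, miR-367-3p, miR-291a-3p and miR-295-5p, and the interval of every neighbouring pair included 1. The ends of the order did differ. miR-294-3p had 7.0 times (3.59 to 15.2) the counts of miR-367-3p in the control-labelled library and 5.17 times (2.76 to 10.5) those of miR-295-5p in the iFIRKO-labelled library. These intervals compare miRNAs within a library and do not cover differences in ligation between sequences.

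Because these miRNAs are best known from embryonic cells, their place among all listed miRNAs was examined next. In the control-labelled library 1321 of 1847 miRNAs (71.5%) had no more counts than miR-294-3p, the highest member, and together these held 1.03% of the listed counts. In the iFIRKO-labelled library 1151 miRNAs (62.3%) had no more counts than miR-294-3p, and they held 1.63% of the listed counts. The median member was at or above 959 miRNAs (51.9%) in the control-labelled library and 865 miRNAs (46.8%) in the iFIRKO-labelled library. By single members, the share of miRNAs with a lower count ran from 4.11% for miR-367-3p to 70.9% for miR-294-3p among those above the floor in the control-labelled library, and from 4.06% for miR-295-5p to 61.7% for miR-294-3p in the iFIRKO-labelled library. In the control-labelled library miR-295-5p was at the floor and miR-367-3p had the lowest count above it. The members thus ran from the bottom of the distribution to its middle part. What gave rise to these counts was not tested.

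**Figure D2:**
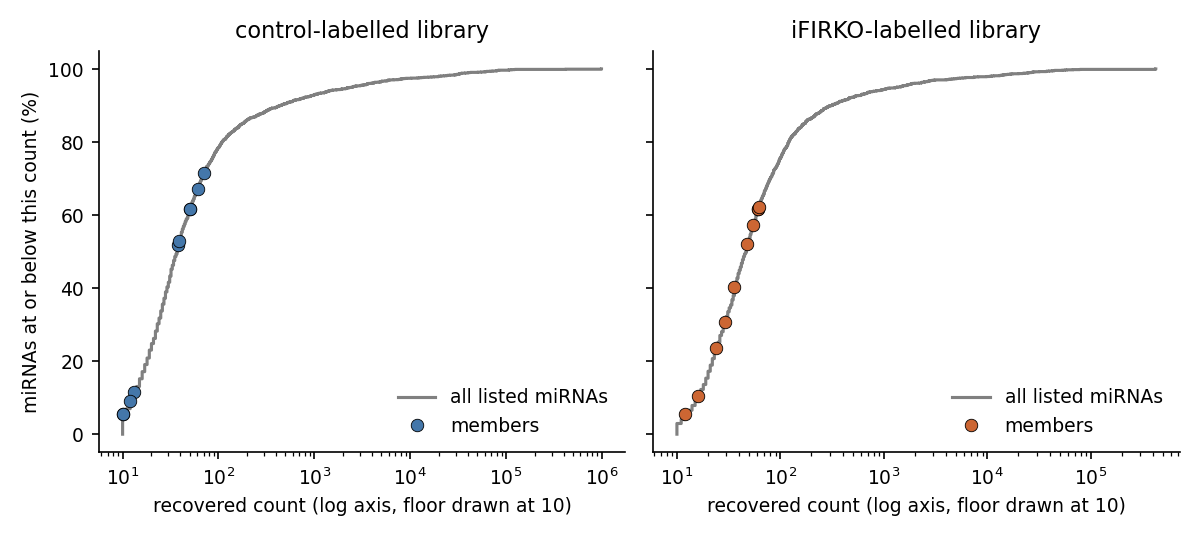
Percent of listed miRNAs at or below a given recovered count (log axis, floor drawn at 10 counts) in the control-labelled library (left) and the iFIRKO-labelled library (right), with the members as points. In both libraries the members end at miR-294-3p, at 71.5% and 62.3% of the listed miRNAs.

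The 5 miRNAs nearest to the median of the members, by distance on the log2 CPM of the 2 libraries, were miR-1b-3p, miR-3084-3p, miR-712-5p, miR-6337 and miR-7068-5p. miR-1b-3p was nearest, with 39 and 42 counts at a distance of 0.024. The other four had 38 or 40 counts in the control-labelled library and 40 or 42 in the iFIRKO-labelled library. Within a distance of 0.5 there were 253 miRNAs outside the members, so a level like theirs was common. With only 2 libraries this likeness compares levels alone.

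Shared seeds outside the clusters were then considered, since the same targets can be reached by miRNAs of other loci. Among the 1592 listed miRNAs with a sequence, none outside the clusters carried the seed AAGUGCU, the seed CUCAAAC of miR-292a-5p, the seed CUCAAAU of miR-295-5p or the seed GUGCCGC of miR-293-3p. Within the clusters, the seed AAGUGCU was carried by miR-302b-3p as well, with 25 counts in the control-labelled library and 40 in the iFIRKO-labelled library, so that its 5 carriers with a sequence summed to 181 and 195 counts, a tally that does not cover miR-292a-3p and miR-302a-3p. The seed of miR-367-3p belongs to a large family, of which miR-32-5p, the closest in sequence, and miR-92a-3p, the second in counts, are printed with miR-302b-3p and its neighbour miR-302c-3p, whose seed differs.
mmu-miR-302b-3p: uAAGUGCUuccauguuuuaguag
mmu-miR-302c-3p: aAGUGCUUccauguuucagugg
mmu-miR-32-5p: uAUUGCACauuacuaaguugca
mmu-miR-92a-3p: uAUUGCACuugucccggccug
miR-25-3p, miR-32-5p, miR-363-3p, miR-92a-3p and miR-92b-3p carry AUUGCAC too, and summed to 80549 counts in the control-labelled library and 37045 in the iFIRKO-labelled library. miR-367-3p made up 0.0124% and 0.0647% of the counts of this seed, respectively. miR-25-3p, from the Mcm7 cluster, had 61907 and 25532 counts (ratio 0.705, 0.695 to 0.715), and miR-92a-3p had 17776 and 11116 (ratio 1.07, 1.04 to 1.09, and below 1 with TMM scaling). miR-32-5p, the closest in sequence to miR-367-3p outside the clusters at 7 edits, had 363 and 187 counts (ratio 0.881, 0.734 to 1.05). The 6 miRNAs whose seeds hold the core of AAGUGCU shifted by 1 base (miR-17-5p, miR-20a-5p, miR-20b-5p, miR-93-5p, miR-106a-5p and miR-106b-5p) are used in most dividing cells and summed to 69604 and 30462 counts. The counts of the 5 carriers of AAGUGCU were small beside these (181 and 195).

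The strands of a hairpin were compared next, because both are cut from the same precursor and 1 of them is usually kept. The tables listed 26 strands of these hairpins, and the 16 that are not members ranged from the floor to 97 counts. miR-291a-5p was the highest of all 26, with 97 counts in the control-labelled library and 82 in the iFIRKO-labelled library. Its 3p strand had 0.134 times (0.0689 to 0.240) as many counts in the control-labelled library and 0.195 times (0.107 to 0.336) in the iFIRKO-labelled library. The strand bias of Mir291a was therefore the same way round in both libraries, with more counts of the 5p strand. miR-291a-5p and miR-291b-5p differ only at the first and last base, so how counts were divided between them is uncertain. Differences in ligation between strands are not covered either.

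The 3p strand was the higher one for miR-295 in the iFIRKO-labelled library, at 29 against 12 counts (ratio 2.42, 1.20 to 5.20), and in the control-labelled library it had 12 counts with the 5p strand at the floor. miR-367-3p had 24 counts against 11 of miR-367-5p in the iFIRKO-labelled library (ratio 2.18, 1.03 to 4.93), and in the control-labelled library 10 counts with the 5p strand at the floor. miR-302d-3p had 61 against 15 counts in the control-labelled library (ratio 4.07, 2.28 to 7.70), and in the iFIRKO-labelled library 48 counts with the 5p strand at the floor. For miR-293 the strands could not be separated in either library (3p over 5p 0.760, 0.485 to 1.18, and 1.46, 0.943 to 2.28). miR-302a-3p exceeded miR-302a-5p in the control-labelled library (39 against 22 counts, ratio 1.77, 1.03 to 3.14), and both had 36 counts in the iFIRKO-labelled library. Hairpins of a cluster were also set side by side on like strands. In the control-labelled library miR-302c-3p was at the floor and miR-302d-3p had 61 counts, while in the iFIRKO-labelled library they had 44 and 48. Their 5p strands had 13 and 15 counts in the control-labelled library. In the iFIRKO-labelled library miR-302c-5p had 11 counts and miR-302d-5p was at the floor. No interval was given where a strand was at the floor.

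**Figure D3:**
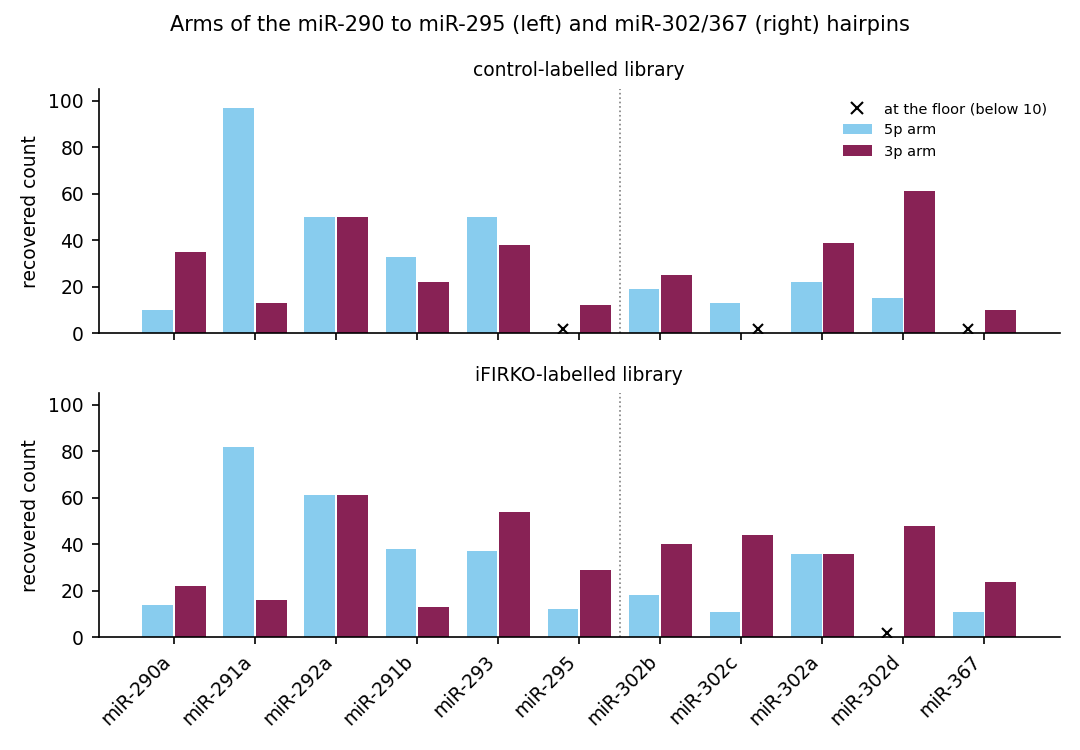
Recovered counts of the 5p and 3p strands (arms) in each library for 11 sense hairpins with both strands listed, in their order along the chromosome within each cluster (dotted line between clusters); crosses mark strands at the floor. miR-291a-5p is the highest bar in both libraries, at 97 and 82 counts, and miR-292a has equal strands in both.

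The question of the study was how serum EV-miRNAs differ between iFIRKO and control mice. On the deposited scale all 10 members had a higher CPM in the iFIRKO-labelled library, but with TMM scaling, which lowers each log2 ratio by 0.85, 7 were higher and 3 lower. At the study's threshold of 1.5-fold, 9 of the 10 members were higher and 0 were lower, beside 66.3% of all 1847 miRNAs higher and 3.03% lower. With TMM scaling 3 members were over 1.5-fold higher and 0 lower, beside 388 miRNAs higher and 360 lower. These 3 include miR-295-5p, whose ratio rests on its floor value in the control-labelled library. The direction of the members on the deposited scale was thus that of most miRNAs. That direction is the reverse of the study's report that most EV-miRNAs were lower in iFIRKO mice. With the labels exchanged, the same 9 members would be over 1.5-fold lower and 0 higher.

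The largest ratios of iFIRKO over control belonged to the members with the fewest counts in the control-labelled library, a count that is itself the divisor of the ratio. miR-295-3p had a ratio of 4.13 (2.04 to 8.89) and miR-367-3p a ratio of 4.10 (1.89 to 9.61). The deposited ratio of miR-295-5p, 20.5, rests on its floor value. With the floor set to 10 counts that ratio was 2.05, which leaves out the counting error of its 12 counts (6.20 to 21.0) in the iFIRKO-labelled library. miR-293-3p followed with 2.43 (1.57 to 3.78), and both strands of miR-292a had 2.09 (1.41 to 3.09). miR-291a-3p had a ratio of 2.10 (0.949 to 4.75). The smallest ratios, each under 1 with TMM scaling, were those of miR-302a-3p at 1.58 (0.975 to 2.55), miR-294-3p at 1.51 (1.06 to 2.16) and miR-302d-3p at 1.35 (0.902 to 2.0). Of the 9 members with an interval, 6 had one above 1 and 3 had one that included 1, beside 62.7% of the 1736 miRNAs over the floor in each library with an interval above 1. Among the other miRNAs of the members' range of mean counts this share was 62.1%, and it was 5 of 13 for the other strands of the hairpins. With TMM scaling only miR-295-3p and miR-367-3p had an interval above 1, beside 15.7% of the 1736 miRNAs. With TMM scaling miR-294-3p was at 0.838, miR-302a-3p at 0.873 and miR-302d-3p at 0.744. These 3 are also the members with fewer counts in the iFIRKO-labelled library than in the control-labelled library before division by depth.

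The median log2 ratio of the members was 1.07, against 0.88 over all miRNAs, a difference of 0.18 that no scaling changes. A total of 7 members lay above the median log2 ratio of all miRNAs and 3 below it. The 1119 other miRNAs in the members' range of mean counts (up to 66) that were over the floor in each library had a median log2 ratio of 0.98, with a 10th percentile of 0.30 and a 90th percentile of 1.87. Of these, 76.3% were over 1.5-fold higher. The difference between the medians of the members and of these miRNAs was 0.08. The 16 other strands of the hairpins had a median log2 ratio of 0.94, with 9 above and 7 below the median of all miRNAs, and 10 were over 1.5-fold higher and 1 lower (miR-302d-5p, at the floor in the iFIRKO-labelled library). The log2 ratios of the 9 members over the floor in each library therefore lay within the range of the 1119 other miRNAs. miR-295-3p (2.05) and miR-367-3p (2.04) lay above their 90th percentile. miR-295-5p, at the floor in the control-labelled library, has no counterpart in that list.

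**Figure D4:**
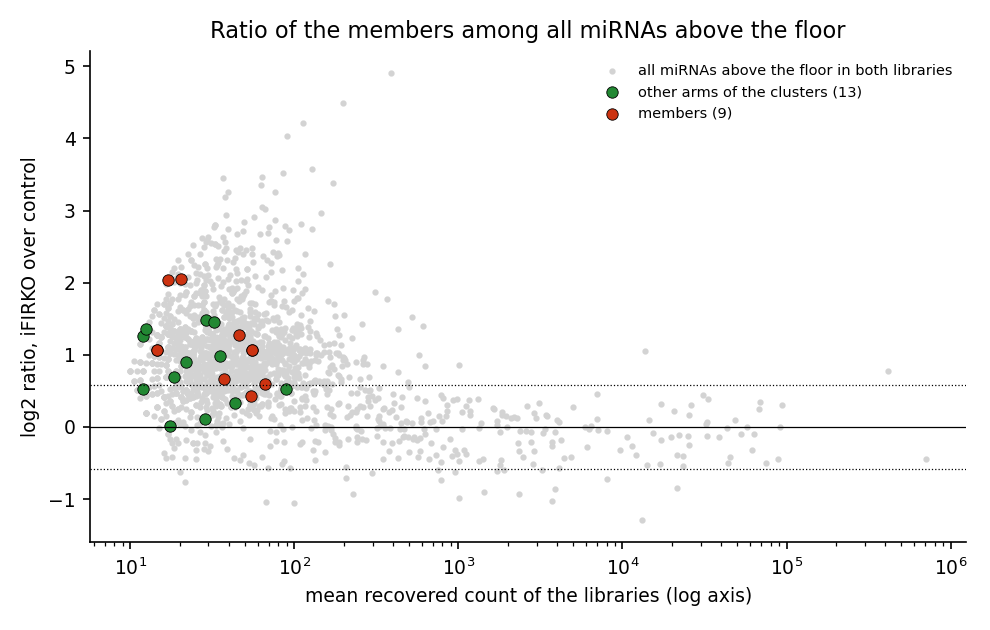
Log2 ratio of the iFIRKO-labelled over the control-labelled library against the mean recovered count (log axis) for miRNAs over the floor in each library, with 9 members in red and 13 other strands (arms) of the clusters in green; dotted lines mark 1.5-fold. On the deposited scale the members lie above 0, among the other miRNAs with few counts, whereas 3 of them fall below 0 with TMM scaling.

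The sums gave the same picture with smaller intervals. The summed members had 90.1 CPM in the control-labelled library and 180 CPM in the iFIRKO-labelled library, a ratio of 2.0 (1.73 to 2.32), or 1.11 with TMM scaling. The 7 members of the miR-290 to miR-295 cluster had 61.3 and 132 CPM, a ratio of 2.15 (1.81 to 2.57). The 3 members of the other cluster had 28.8 and 48.4 CPM, a ratio of 1.68 (1.27 to 2.21) on the deposited scale that was 0.982 before division by depth and under 1 with TMM scaling. The intervals of the clusters overlapped. Before division by depth, the members had 1.17 times as many counts in the iFIRKO-labelled library, the other miRNAs of their range 1.20 times, and all listed miRNAs 0.584 times. The counts of low miRNAs were thus nearly alike in the libraries although the depth was not, and the depth difference of 1.71-fold enters each ratio in full. What part the depth has in the ratios of the members was not tested.

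**Figure D5:**
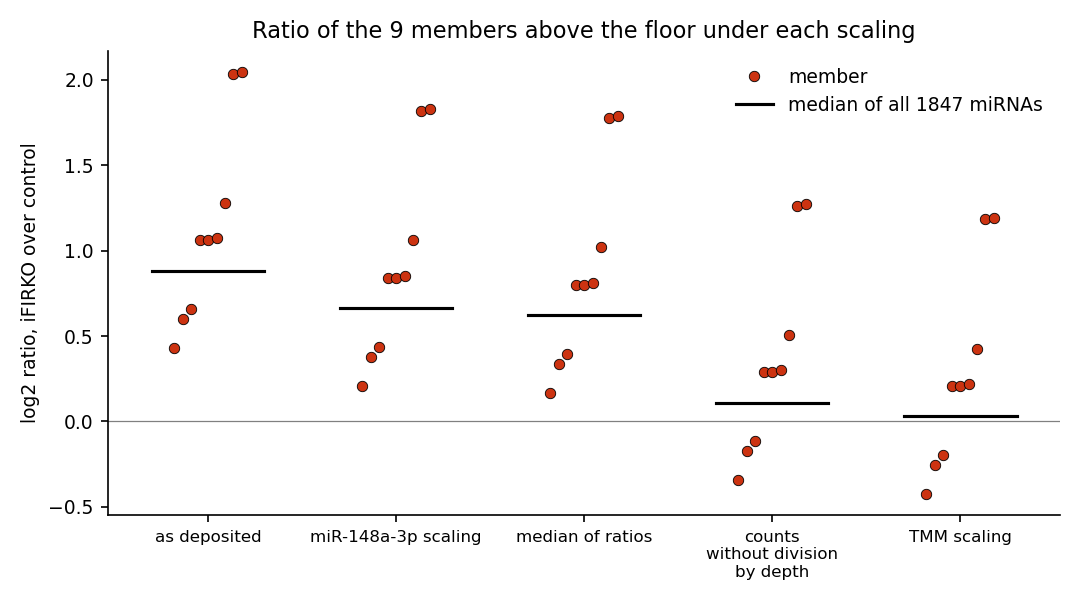
Log2 ratio of the iFIRKO-labelled over the control-labelled library for the 9 members above the floor under 5 scalings, with a black line at the median of all 1847 miRNAs. The points shift together with the line, and 3 members lie below 0 with TMM scaling and without division by depth.

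Other lists of miRNAs were set beside the members to show where they differ. The 11 germ line miRNAs, which are X-linked and known from testis, summed to 340 and 395 counts, a ratio of 1.99 (1.71 to 2.30), with a median log2 ratio of 1.06. These values were close to those of the members (344 and 403 counts). The 9 neural miRNAs ranged from 16 counts (miR-124-3p) to 30444 counts (miR-128-3p) in the control-labelled library, and had a median log2 ratio of 0.51, which is below 0 with TMM scaling. The 9 let-7 miRNAs, which rise as stem cells differentiate and oppose the stem cell clusters, summed to 355066 and 209966 counts, which was 9.30% and 9.40% of the depth, with a ratio of 1.01 that is also under 1 with TMM scaling. The share of let-7 was thus far above that of the members (0.00901% and 0.0180%) in both libraries. The 44 strands of the Sfmbt2 repeat cluster had a median of 26 and 34.5 counts and a median log2 ratio of 0.64, again below 0 with TMM scaling. The 193 3p strands from miR-6896 to miR-7094, many of them spliced from short introns, had a median of 21 and 26 counts and a median log2 ratio of 1.10. None of these differences between lists can be tested with 1 library per group.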

How the data were processed

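RNA of serum EVs went through a QIAseq miRNA library kit and was sequenced on a NextSeq500 and analysed by the authors on the GeneGlobe Data Analysis Center. The submitters' processing notes name mm10. The aligner, the miRNA annotation release and the use of molecular identifiers are not given in the sources used here. The authors deposited 1 normalized signal per miRNA and library. Every value was within 0.00190 of a whole number after multiplication by 1 constant, which was taken as the depth. Ratios were taken on the deposited scale. Intervals of ratios and counts are exact (Clopper-Pearson and Poisson) at 95%, from scipy 1.17.1. The code for the depth and for the ratio intervals was tested on simulated data, and that for the Poisson intervals was not. A count test with a spread between replicates could not be fitted to 1 library per group. The alternatives were 4 scalings (equal totals, TMM of edgeR 4.0.16, median of ratios at a mean count of at least 100, miR-148a-3p), 1 CPM added, the floor at 10 counts, members at the floor left out, a mean count of at least 20 and a 2-fold threshold. Comparing counts without division by depth was added after seeing the data. Named were all members, the other strands of their hairpins, miRNAs sharing a seed and the 5 nearest in level, to which the 4 miRNAs that the study took forward were added after their values were seen. Sequences are from RefSeq (GRCm38.p6) and hairpin positions from GENCODE M21. The members and lists were chosen with earlier results of these data known.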

Additional observations from a re-analysis of the deposited data

How the results depend on the processing

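No paired analysis was possible because there was only 1 library of each genotype, and for the same reason no library could be left out. Scaling moved the members most, by 1 factor applied to every miRNA. With TMM scaling 3 members were over 1.5-fold higher, the median log2 ratio was 0.21, the ratio of the summed members 1.11, that of miR-294-3p 0.838 and that of miR-302a-3p 0.873. Without division by depth, which was chosen after seeing the data, the values were 3 members, 0.29, 1.17, 0.886 and 0.923 in the same order. In both settings the 3 members include miR-295-5p, whose ratio rests on its floor value in the control-labelled library. Over all miRNAs, 21.0% were over 1.5-fold higher with TMM scaling and 23.7% without division by depth. With the median of ratios 7 members were over 1.5-fold higher, at a median log2 ratio of 0.81 and a ratio of the sums of 1.67, and with miR-148a-3p again 7, at 0.85 and 1.72. The share of all miRNAs over 1.5-fold higher was 52.2% and 54.2%, respectively. Under equal totals, 1 CPM added, the floor at 10 counts, members at the floor left out, a mean count of at least 20 (7 members left) and a 2-fold threshold, between 6 and 9 members were past the threshold and 0 were lower. No member was over 1.5-fold lower under any setting run. The ratio of miR-295-5p is 20.5 as deposited and 2.05 with the floor at 10 counts. Counts of 10 to 70 limit each member: a count of 12 has an interval of 6.20 to 21.0.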
